A study of Homo sapiens with 6 samples.

Results

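Translation initiation and elongation factors were followed in HCT116 cells, a human colorectal cancer cell line, with and without knockdown (KD) of the long noncoding RNA GMDS-AS1. The set held 47 genes, all of them EIF or EEF genes taken by symbol and grouped by the complex that the protein belongs to, out of 60662 genes with a value in the files. All 47 were found and all 47 passed the filter on low values. The comparison addressed what depletion of GMDS-AS1 does to gene expression in these cells. Both groups were HCT116 cells that had been stably transduced with lentivirus, with a nontarget short hairpin RNA in the shCtrl group and GMDS-AS1 shRNA2 in the KD group, and both carried the label WT as genotype. Each group had 3 libraries of poly-A selected RNA, numbered as biological replicates. One line and one hairpin stood behind the KD group, so an effect of the hairpin on other RNAs and an effect of GMDS-AS1 loss cannot be told apart here. Whether the replicates were separate transductions or separate cultures of one transduced line is not given in the sources used here.

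Protein synthesis starts when EIF2 brings the initiator tRNA to the small ribosomal subunit, with EIF1, EIF1A, EIF3 and EIF5 bound beside it. EIF4F, made of the cap-binding EIF4E, the scaffold EIF4G and the helicase EIF4A, recruits this complex to the mRNA cap, and EIF2B recharges EIF2 with GTP. Chain growth then runs on EEF1, which delivers tRNAs, and EEF2, which moves the ribosome along. In colorectal and other tumour cells these factors are known as points where growth signals and stress signals, through mTORC1 and the EIF2 kinases, set the rate of translation.

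Values were TPM, transcript counts corrected for gene length and scaled to one fixed total in each library. A TPM share does not tell fewer transcripts per cell from a larger total of other transcripts, and in bulk RNA fewer cells of a type and less RNA per cell cannot be told apart. Fold changes are log2(TPM + 1) differences, KD minus shCtrl, after scaling of the libraries by a trimmed mean, tested with limma over 16901 genes and given with their standard error (SE). Values listed per group are libraries 1, 2 and 3 in that order. This scaling raised the KD values by 0.25 on the log2 scale relative to shCtrl. A gene with the same TPM in both groups thus has a fold change near that size, or smaller at low TPM, where the added 1 weighs more. Across all tested genes the median log2 fold change was -0.0020 after scaling and -0.20 on the TPM as deposited. Changes are given relative to the scaled median, and the deposited scale is named wherever it ends a call or turns a direction.

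GMDS-AS1 itself, listed as GMDS-DT (ENSG00000250903, GRCh38 chr6:2245748-2482022), had 1.66, 2.21 and 1.34 TPM in shCtrl libraries 1 to 3 and 0.880, 0.910 and 0.790 TPM in KD libraries 1 to 3. The groups did not overlap, and its log2 fold change was -0.41 (SE 0.137, adjusted p = 0.0407). That call did not hold when any 1 of 5 libraries was left out (adjusted p up to 0.117 from limma) or with the replicate number as a block (adjusted p = 0.0518). At so low a level the pseudocount of 1 shrinks the fold change of GMDS-AS1, which was -0.68 with a pseudocount of 0.1. Libraries of one group correlated at 0.985 to 0.987 and libraries of different groups at 0.956 to 0.958, and no 2 columns were identical. Of 9 colon epithelial markers, 8 had a mean above 1 TPM, and their summed level was 9623 to 10077 TPM in shCtrl and 3795 to 3910 TPM in KD libraries. Of the 8 that were tested, 4 were lower (KRT8, KRT18, KRT19 and CLDN7), 1 higher (CLDN4, on the scaled values only) and 3 not called (EPCAM, CDH1 and CDX2). Most of the difference in the sum came from the keratins KRT8, from 4426 to 1358 TPM in the mean, and KRT18, from 2972 to 702 TPM. Fibroblast markers summed to 10.2 to 15.0 TPM, nearly all from COL1A1 (means of 13.6 TPM in shCtrl and 10.5 TPM in KD). Leukocyte markers summed to at most 2.03 TPM with PTPRC at 0 in every library, and endothelial markers to at most 1.13 TPM. The part of the keratin decrease in the results below was not tested.

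Of the 47 factors, 36 were higher and 5 lower in KD cells, and 6 did not pass the test. The median log2 fold change was 0.42, with a range from -0.46 to 1.43. Over all tested genes 28.5% were called higher and 25.9% lower. Most of the factors are abundant, however, and abundant genes moved up as a class. Of all genes with a mean of at least 100 TPM, 69.1% were higher and 18.0% lower, with a median of 0.32. Of the 33 factors at that level, 26 were higher and 4 lower, with a median of 0.42, a share close to that background. On the TPM as deposited, 26 of the 47 factors were higher, 9 lower and 12 not called, with a median of 0.18, beside 16.3% and 40.3% of all tested genes. Of the 33 abundant factors, 19 were then higher and 7 lower, beside 47.4% and 32.6% of abundant genes. All 26 factors called higher on the deposited values were also called higher after scaling, and all 5 called lower after scaling were lower on both.

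Only 5 factors, EIF2A, EIF4EBP2, EIF2B3, EIF3B and EIF5A, passed the test with a change of at least 2-fold, and all 5 were higher in KD cells. Among all tested genes 2.93% were higher and 4.24% lower by this rule. On the deposited values, 2 factors reached 2-fold, and the share of all tested genes that did so on that scale was not counted. Together the 47 factors made up 2.77% ± 0.0361 of all TPM in shCtrl and 3.11% ± 0.0235 in KD libraries (SD, n = 3). The shares did not overlap, and the exact permutation p of 0.1 is the smallest that 3 against 3 libraries can give.

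**Figure D1:**
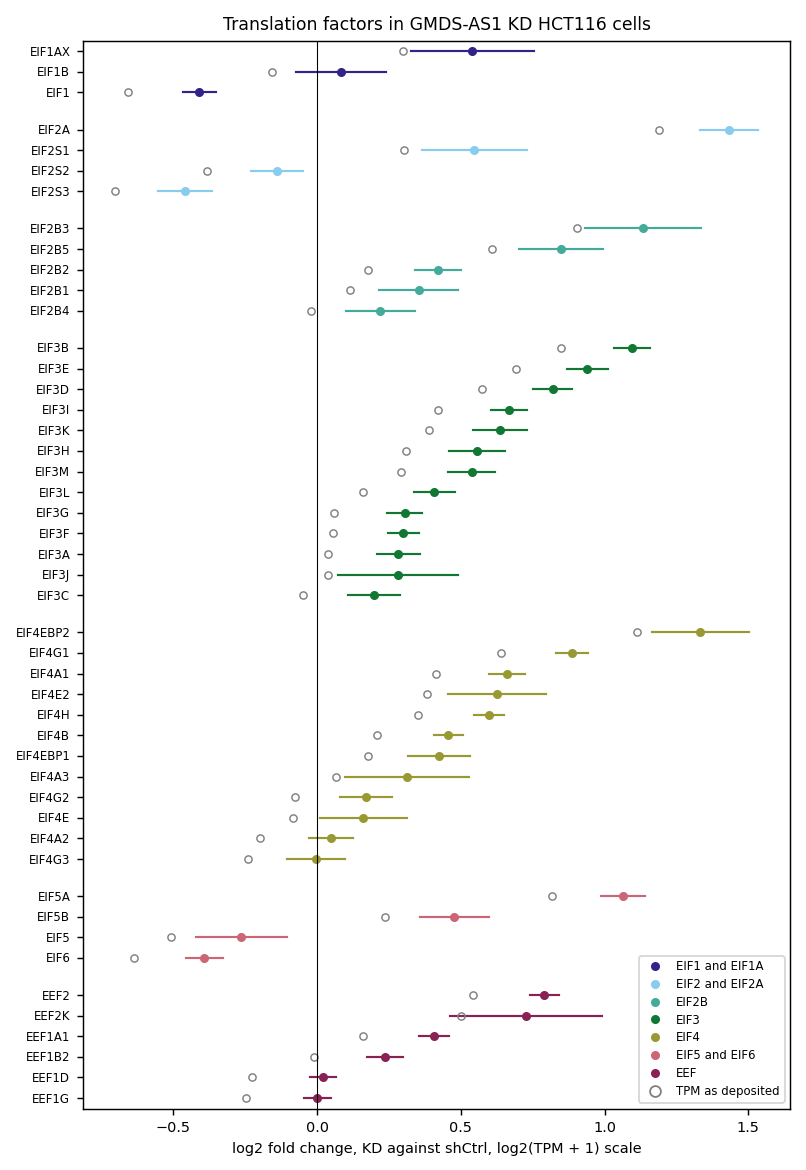
Log2 fold change of each of the 47 factors, KD against shCtrl, on the log2(TPM + 1) scale, with filled points and 95% confidence intervals from limma after scaling, coloured by complex, and open grey circles for the TPM as deposited. All 13 EIF3 and all 5 EIF2B genes lie to the right of 0 after scaling, EIF1, EIF2S2, EIF2S3, EIF5 and EIF6 lie to the left on both scales, and every open circle sits about 0.25 to the left of its filled point.

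The bases before the transcription start are shown for 6 factors, 4 that hold an E-box in an exon-free run of at least 100 bases and 2 without one, chosen after their values were seen. RefSeq windows of 250 bases before to 50 bases after the start (GRCh38.p14) were matched by symbol for 39 of the 47 factors. They were searched on both strands for the E-box CACGTG, the site read by MYC, USF and related factors, and for TGATGNAA (N is any base), the core of the element read by ATF4. No window of a factor held both. CACGTG was found in 10 of the 39 windows, 25.6%, beside 10.0% of 11046 windows of genes tested here and 7.43% of all 27305 windows. These 10 were EIF1B, EIF2B3, EIF3F, EIF3K, EIF4A3, EIF4B, EIF4E, EIF4G1, EIF4H and EEF2K. Of the 30 matched factors called higher 8 held it, of the 4 called lower none did, and of the 5 not called 2 did. TGATGNAA was found in 0 of the 39 windows, beside 1.70% of windows of tested genes. These matches are descriptions of letters in a window. The share of windows with CACGTG was not counted among genes of at least 100 TPM, nor among all tested genes called higher or lower. A link between these letters and the changes was not tested. The runs below stop where an annotated GENCODE v29 exon or the gene itself begins, are written 5′ to 3′ on the gene's strand, and carry CACGTG in capitals. EIF4G1 (chr3:184314356-184314494, plus strand), EIF4H (chr7:74174106-74174244, plus strand), EIF2B3 (chr1:44986723-44986845, minus strand) and EEF2K (chr16:22206028-22206277, plus strand) were called higher and hold the letters, which begin 144, 199, 179 and 59 bases before the RefSeq start. EIF5A (chr17:7306749-7306998, plus strand) was higher and EIF1 (chr17:41688635-41688884, plus strand) lower, and neither run holds them.
EIF4G1: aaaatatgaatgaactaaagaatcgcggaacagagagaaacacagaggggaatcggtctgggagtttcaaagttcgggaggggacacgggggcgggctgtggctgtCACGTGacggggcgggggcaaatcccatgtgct
EIF4H: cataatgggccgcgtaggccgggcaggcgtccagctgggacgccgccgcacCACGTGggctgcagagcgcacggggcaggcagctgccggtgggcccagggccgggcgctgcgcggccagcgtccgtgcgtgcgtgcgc
EIF2B3: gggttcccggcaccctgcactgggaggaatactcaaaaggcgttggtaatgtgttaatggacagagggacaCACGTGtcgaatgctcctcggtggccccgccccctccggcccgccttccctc
EEF2K: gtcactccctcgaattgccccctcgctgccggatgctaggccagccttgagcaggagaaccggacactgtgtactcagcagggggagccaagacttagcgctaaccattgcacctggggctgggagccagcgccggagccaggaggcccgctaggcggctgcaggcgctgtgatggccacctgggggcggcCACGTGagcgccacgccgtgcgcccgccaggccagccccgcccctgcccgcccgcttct
EIF5A: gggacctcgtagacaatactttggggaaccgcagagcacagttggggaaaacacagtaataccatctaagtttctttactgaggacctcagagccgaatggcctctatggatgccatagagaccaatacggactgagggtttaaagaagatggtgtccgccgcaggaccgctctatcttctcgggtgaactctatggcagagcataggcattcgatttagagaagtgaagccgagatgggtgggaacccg
EIF1: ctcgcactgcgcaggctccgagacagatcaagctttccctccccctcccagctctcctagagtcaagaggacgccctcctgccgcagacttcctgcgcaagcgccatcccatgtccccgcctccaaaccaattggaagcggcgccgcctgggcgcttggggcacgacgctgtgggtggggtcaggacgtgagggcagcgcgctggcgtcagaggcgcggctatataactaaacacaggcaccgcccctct

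EIF1 and EIF1A hold the small subunit open while it scans for the start codon, and the genes of this pair moved apart. EIF1 (ENSG00000173812) had 804, 810.1 and 814 TPM under shCtrl and 509, 517 and 513 TPM under KD, with the shCtrl values tightly grouped and well above all KD values. Its log2 fold change was -0.41 (SE 0.0241, adjusted p = 1.58e-05), and -0.66 on the deposited scale. EIF1AX, the X-linked gene for EIF1A, had 44.5, 36.2 and 37.95 TPM under shCtrl and 51.9, 49.5 and 44.9 TPM under KD, and the groups lay apart by a small margin. The change was 0.54 (SE 0.0895, adjusted p = 0.00216). EIF1B, a close paralog of EIF1, had 41.8, 44.3 and 39.2 TPM under shCtrl and 37.8, 33.9 and 40.4 TPM under KD, which overlap. It did not pass the test, at 0.082 (adjusted p = 0.33) with a 95% interval of -0.074 to 0.24, and its sign turned to -0.16 on the deposited values. EIF1B made up 0.0516 of the EIF1 level in shCtrl and 0.0729 in KD cells, a log2 difference of 0.50. Like every ratio within a library, this one does not depend on the scaling.

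The 3 subunits of EIF2 did not move together. EIF2S1 encodes the alpha subunit, whose phosphorylation by stress kinases blocks the recharging of EIF2. It had 101, 114 and 116 TPM under shCtrl and 138, 145 and 127 TPM under KD, every KD value above every shCtrl value, and a log2 fold change of 0.55 (SE 0.0763, adjusted p = 0.00096). EIF2S2, the beta subunit, was 151 ± 5.66 TPM in shCtrl and 115 ± 2.32 TPM in KD cells (SD, n = 3). Its change of -0.14 (adjusted p = 0.0187) lost its call without KD library 3, with an adjusted p of 0.0697. EIF2S3, the X-linked gene of the gamma subunit that binds GTP and the tRNA, had 97.6, 96.7 and 93.8 TPM under shCtrl and 57.5, 56.2 and 62.4 TPM under KD. It was the factor with the largest decrease, -0.46 (SE 0.0396, adjusted p = 9.45e-05), and the lowest shCtrl value lay far above the highest KD value. In TPM, shCtrl cells ranked EIF2S2 above EIF2S1 above EIF2S3, while KD cells ranked EIF2S1 above EIF2S2 above EIF2S3, and in shCtrl the lowest EIF2S1 library lay close above the highest EIF2S3 library. The EIF2S1 to EIF2S3 ratio, chosen after its values were seen and given with no test, was 1.04, 1.18 and 1.24 under shCtrl and 2.40, 2.58 and 2.03 under KD.

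EIF2A, despite its name, is no subunit of EIF2 and can carry initiator tRNA on its own. On the log2(TPM + 1) scale it showed the largest increase of the set. The gene (ENSG00000144895, GRCh38 chr3:150546678-150584242, plus strand) had 105, 106 and 95.05 TPM under shCtrl and 235, 225 and 242 TPM under KD. The lowest KD library was more than 100 TPM above the highest shCtrl library. Its log2 fold change was 1.43 (SE 0.0422, adjusted p = 1.15e-06), which is 2.70-fold, and 1.19 on the deposited values. With a pseudocount of 0.1 it was 1.44, slightly below the 1.48 of EIF4EBP2, so the first rank depends on the pseudocount. EIF2A stood at about the level of EIF2S1 in shCtrl cells, with EIF2A to EIF2S1 ratios of 1.04, 0.928 and 0.817 under shCtrl and 1.70, 1.56 and 1.91 under KD. This ratio too was picked after the values were seen.

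All 5 subunits of EIF2B, the exchange factor for EIF2 and the target of its inhibition under stress, were called higher after scaling, beside 28.5% of all tested genes, and 3 of the 5 on the deposited values, beside 16.3%. EIF2B3, the gamma subunit of the catalytic part, was the lowest in level and the highest in change. It had 11.5, 10.3 and 9.21 TPM under shCtrl and 18.8, 20.4 and 21.3 TPM under KD, and its log2 fold change was 1.13 (SE 0.0843, adjusted p = 4.61e-05). EIF2B5, the catalytic epsilon subunit, had 43.3, 36.9 and 39.02 TPM under shCtrl and 62.8, 58.9 and 61.2 TPM under KD, a change of 0.85 (SE 0.0610, adjusted p = 3.9e-05). In both genes the groups lay well apart. The alpha, beta and delta subunits of the regulatory part changed less, with 0.35 for EIF2B1, 0.42 for EIF2B2 and 0.22 for EIF2B4, at adjusted p from 6.03e-05 to 0.00911. On the deposited values EIF2B1 (0.11) and EIF2B4 (-0.022) were not called, and EIF2B4 levels overlapped between the groups. The highest subunit exceeded the lowest 6.04-fold in shCtrl and 3.51-fold in KD cells by mean TPM, with EIF2B2 highest and EIF2B3 lowest in both.

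EIF3, the largest initiation factor, ties the small subunit to EIF4G, and all 13 of its genes were called higher after scaling, beside 28.5% of all tested genes and 69.1% of those of at least 100 TPM. Their fold changes ran from 0.20 for EIF3C to 1.10 for EIF3B, with a median of 0.54, and their summed level was 3465 ± 69.7 TPM in shCtrl and 4376 ± 19.2 TPM in KD cells (SD, n = 3). On the deposited values 8 of the 13 were higher, beside 16.3% of all tested genes and 47.4% of those of at least 100 TPM. The 5 not called there were EIF3A (0.037), EIF3C (-0.049), EIF3F (0.054), EIF3G (0.058) and EIF3J (0.038). No EIF3 gene was called lower on either scale. Of genes of at least 100 TPM, 18.0% were lower after scaling and 32.6% on the deposited values.

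Within EIF3, the module of EIF3B, EIF3G and EIF3I sits at the mRNA entry side of the ribosome. EIF3B (ENSG00000106263, GRCh38 chr7:2354086-2380745, plus strand) had 137, 134 and 129.7 TPM under shCtrl and 241, 242 and 240.2 TPM under KD. The KD libraries differed among themselves by about 2 TPM and stood more than 100 TPM above shCtrl, a log2 fold change of 1.10 (SE 0.0269, adjusted p = 6.95e-07). EIF3I had 295, 281 and 282 TPM under shCtrl and 379, 381 and 390.4 TPM under KD, a change of 0.67 (adjusted p = 3.12e-06). EIF3G was 250.01 ± 7.23 TPM in shCtrl and 260.3 ± 1.98 TPM in KD cells (SD, n = 3) and changed by 0.30 (adjusted p = 7.6e-05) after scaling only. The members of this module differed in their change, with intervals of 1.03 to 1.16 for EIF3B and 0.24 to 0.36 for EIF3G that lie apart.

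Among the 8 subunits of the core octamer, EIF3E changed most. It had 416, 402 and 390.04 TPM under shCtrl and 647, 662 and 645 TPM under KD, with no overlap and a change of 0.94 (SE 0.0296, adjusted p = 1.44e-06). EIF3K had 382, 346 and 349 TPM under shCtrl and 469.9, 461 and 479.7 TPM under KD and changed by 0.64 (adjusted p = 1.97e-05). EIF3H had 391, 401 and 425 TPM under shCtrl and 516, 494 and 497 TPM under KD and changed by 0.55 (adjusted p = 4.47e-05). The KD values of EIF3K and EIF3H stood above every shCtrl value. EIF3M had 348, 329.97 and 324 TPM under shCtrl and 406, 417 and 402 TPM under KD and changed by 0.54 (adjusted p = 2.14e-05), again without overlap. EIF3L, EIF3F, EIF3A and EIF3C, at 0.41, 0.30, 0.28 and 0.20, made up the lower end, with adjusted p from 4.14e-05 to 0.00407. Reads of EIF3C can be shared with its near-identical copy EIF3CL, which held 28.1% to 30.6% of their sum. The summed genes changed by 0.21 (adjusted p = 0.000946 from limma), so the value of EIF3C held with the copy added. EIF3D, which can bind the cap of some mRNAs, had 231, 229.9 and 220.2 TPM under shCtrl and 332, 344 and 338 TPM under KD, all KD values more than 100 TPM above shCtrl, and a change of 0.82 (SE 0.0288, adjusted p = 2.02e-06). EIF3J, the loosely attached subunit, was at 53.1 ± 6.73 TPM in shCtrl and 54.4 ± 2.65 TPM in KD cells (SD, n = 3) with overlapping groups, and its call (0.28, adjusted p = 0.032) was lost when any 1 of 4 libraries was left out.

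**Figure D2:**
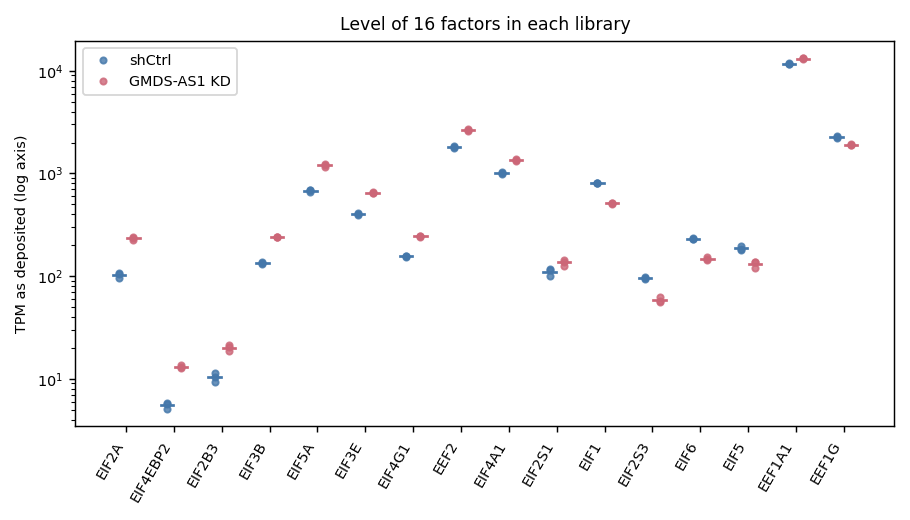
TPM as deposited on a log axis for 16 factors, with 1 point per library, shCtrl in blue and KD in red, and a bar at each group mean. EIF2A, EIF3B, EIF5A and EEF2 separate upward in KD cells, EIF1, EIF2S3, EIF6 and EIF5 separate downward, and the 3 libraries of a group lie close together at every level from 5.09 TPM (EIF4EBP2) to 13223 TPM (EEF1A1).

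Of the 12 EIF4 genes, 9 were higher, none lower and 3 not called, beside 28.5% of all tested genes and 69.1% of those of at least 100 TPM called higher. Called lower were 25.9% of all tested genes and 18.0% of those of at least 100 TPM. On the deposited values 7 of the 12 were higher and 2 lower. Beside these stand 16.3% higher and 40.3% lower of all tested genes. Of genes of at least 100 TPM, 47.4% were higher and 32.6% lower on the deposited values. EIF4G1, the scaffold of the cap-binding complex, had 155, 156 and 156 TPM under shCtrl and 244, 242 and 244 TPM under KD. Libraries of one group differed by under 2 TPM, and the change was 0.89 (SE 0.0238, adjusted p = 8.83e-07). EIF4A1, the main helicase, had 1035, 1001 and 989 TPM under shCtrl and 1311, 1346 and 1372 TPM under KD, with no overlap and a change of 0.66 (SE 0.0258, adjusted p = 2.91e-06). Its cofactors rose as well. EIF4H had 301, 304 and 303 TPM under shCtrl and 386, 385 and 388 TPM under KD, a change of 0.60 (adjusted p = 2.34e-06). EIF4B was 528 ± 7.26 TPM in shCtrl and 611 ± 4.29 TPM in KD cells (SD, n = 3), a change of 0.46 (adjusted p = 5.64e-06). The cap-binding subunit did not pass the test. EIF4E had 89.4, 103 and 98.99 TPM under shCtrl and 91.1, 95.3 and 87.9 TPM under KD, which overlap, a change of 0.16 (adjusted p = 0.0708) with a 95% interval of 0.0089 to 0.31, and -0.085 on the deposited scale.

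Of the relatives of these subunits, EIF4A2 and EIF4G3 were not called after scaling, and EIF4G2 and EIF4A3 had small changes. EIF4A2, the second helicase, had 449, 422 and 413 TPM under shCtrl and 369, 373 and 376 TPM under KD. All KD values lay below all shCtrl values, yet the scaled change was 0.049 (adjusted p = 0.245) with an interval of -0.028 to 0.13, and on the deposited scale the gene was called lower, at -0.20. EIF4G3, a second scaffold, was 23.6 ± 0.486 TPM in shCtrl and 19.9 ± 0.474 TPM in KD cells (SD, n = 3), with -0.0039 (adjusted p = 0.948) after scaling, an interval of -0.10 to 0.096, and a call of lower (-0.24) on the deposited values. EIF4G2, which lacks the EIF4E-binding site and serves cap-independent starts, was 378 ± 9.38 TPM in shCtrl and 358 ± 13.8 TPM in KD cells (SD, n = 3). It was called higher after scaling (0.17, adjusted p = 0.0083) and had the opposite sign, without a call, on the deposited values (-0.078). EIF4A3, a helicase of the exon junction complex rather than of initiation, changed by 0.31 (adjusted p = 0.0239) with overlapping groups, and its adjusted p was 0.056 with the replicate number as a block and 0.548 on the deposited scale.

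EIF4E is held back by the EIF4E-binding proteins until mTORC1 phosphorylates them. EIF4EBP2 was the lowest factor of the set in shCtrl cells, while EEF2K was the lowest in KD cells. EIF4EBP2 had 5.09, 5.81 and 5.72 TPM under shCtrl and 13.5, 12.8 and 13.1 TPM under KD. Every KD library had more than double the level of every shCtrl library, and the change was 1.33 (SE 0.0708, adjusted p = 1.02e-05). EIF4EBP1 had 186, 170.1 and 178 TPM under shCtrl and 193, 204 and 208 TPM under KD, a change of 0.42 (SE 0.0457, adjusted p = 0.000273) with the groups apart. EIF4E2, which binds the cap without recruiting ribosomes, had 83.8, 102 and 85.6 TPM under shCtrl and 115, 117 and 121 TPM under KD. It changed by 0.63 (SE 0.0713, adjusted p = 0.000357), and shCtrl library 2 lay closest to the KD values.

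Ratios between partners and paralogs within a library show these shifts without any scaling. Exact permutation tests over the libraries were run for 8 ratios. In 7 of them the groups did not overlap and the two-sided exact p was 0.1, the smallest that this design can give, or 0.114 after Benjamini-Hochberg adjustment over the 8, so none could pass the threshold. How often ratios of other gene pairs separate between the groups was not counted, so these 7 have no background beside them. The ratio of EIF4A2 to EIF4A1 was 0.424 ± 0.00868 in shCtrl and 0.277 ± 0.00375 in KD cells (SD, n = 3), a log2 difference of -0.61. EIF4G3 to EIF4G1 was 0.152 ± 0.00390 in shCtrl and 0.0817 ± 0.00184 in KD cells (SD, n = 3), a difference of -0.90. EIF4G2 to EIF4G1 was 2.43 ± 0.0576 in shCtrl and 1.47 ± 0.0595 in KD cells (SD, n = 3), a difference of -0.72. In each of these pairs the balance moved toward the main initiation subunit. EIF4EBP2 to EIF4EBP1 was 0.0312 ± 0.00349 in shCtrl and 0.0653 ± 0.00418 in KD cells (SD, n = 3), a difference of 1.07. EIF4E2 to EIF4E was 0.931 ± 0.0639 in shCtrl and 1.29 ± 0.0774 in KD cells (SD, n = 3), and EIF4EBP1 to EIF4E was 1.84 ± 0.218 in shCtrl and 2.21 ± 0.143 in KD cells (SD, n = 3). Both gained on EIF4E, by 0.47 and 0.26 on the log2 scale, and in the second shCtrl library 1 (2.08) nearly met KD library 1 (2.11). The ratio of EEF2K to EEF2 was the exception, at 0.00474 ± 0.000720 in shCtrl and 0.00474 ± 0.000406 in KD cells (SD, n = 3), with overlapping groups and an exact p of 1.

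**Figure D3:**
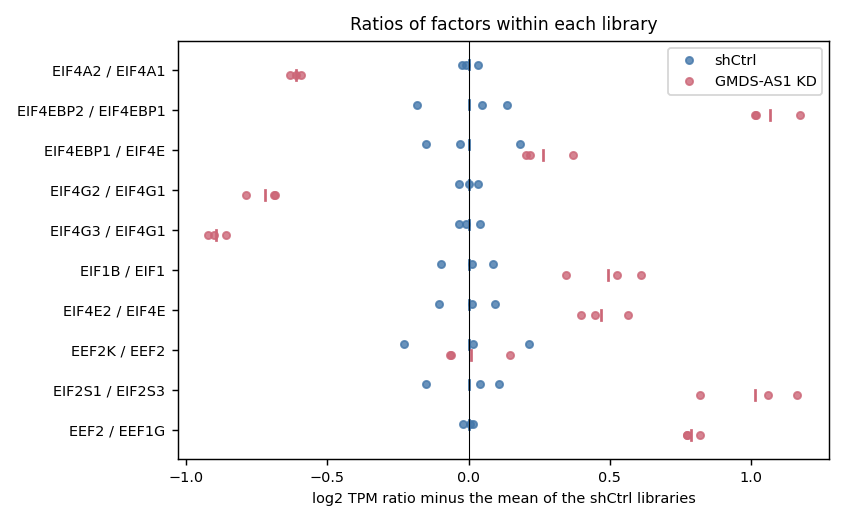
Log2 TPM ratio of 10 pairs of factors in each library, minus the mean of the 3 shCtrl libraries, with shCtrl in blue, KD in red and a bar at each group mean. The 8 upper pairs were tested and the lower 2 were chosen after the values were seen. EIF4A2, EIF4G2 and EIF4G3 fell against their partners in all 3 KD libraries, and only EEF2K to EEF2 overlapped between the groups.

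EIF5 and EIF6 fell while EIF5A and EIF5B rose. EIF5A, the hypusine-bearing factor that helps ribosomes through stalling stretches and at termination, had 662, 685 and 697 TPM under shCtrl and 1234, 1158 and 1212 TPM under KD. The gene (ENSG00000132507, GRCh38 chr17:7306999-7312463, plus strand) changed by 1.06 (SE 0.0320, adjusted p = 1.23e-06), and the lowest KD library was far above the highest shCtrl library. Adding the copy EIF5AL1, at 0.960% to 1.26% of the sum, gave 1.07. EIF5B, which joins the subunits, was 51.7 ± 0.458 TPM in shCtrl and 61.1 ± 3.61 TPM in KD cells (SD, n = 3) and changed by 0.48 (SE 0.0503, adjusted p = 0.000244). EIF5, the GTPase activator that fires EIF2 at the start codon, was 187 ± 7.57 TPM in shCtrl and 131 ± 10.6 TPM in KD cells (SD, n = 3), a change of -0.26 (SE 0.0663, adjusted p = 0.0137). EIF6, which keeps the large subunit from joining too early, was 230.1 ± 3.76 TPM in shCtrl and 147 ± 4.30 TPM in KD cells (SD, n = 3), a change of -0.39 (SE 0.0267, adjusted p = 2.97e-05). On the deposited values EIF5 and EIF6 were lower by more, at -0.51 and -0.64. The 5 factors called lower, EIF1, EIF2S2, EIF2S3, EIF5 and EIF6, were singled out after their values were seen.

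Among the elongation factors, EEF2 stood out. It moves the ribosome by one codon at a time and had 1845, 1793 and 1785 TPM under shCtrl and 2644, 2565 and 2696 TPM under KD. The change was 0.79 (SE 0.0211, adjusted p = 8.74e-07), with no overlap and 0.54 on the deposited scale. EEF1A1, which delivers aminoacyl-tRNAs, was the most abundant factor, with 11965, 11634 and 11601 TPM under shCtrl and 12929, 13181 and 13223 TPM under KD. Its change was 0.41 (SE 0.0221, adjusted p = 1.12e-05), and adding 39 EEF1A1 pseudogenes, at most 0.215% of the sum, left it at 0.41. Of the exchange factors that recharge EEF1A, EEF1B2 was called higher after scaling and EEF1G and EEF1D were not called. EEF1G had 2303, 2278 and 2209 TPM under shCtrl and 1936, 1877 and 1912 TPM under KD, all KD values lower, a scaled change of 0.0012 (adjusted p = 0.966) with an interval of -0.045 to 0.048, and a call of lower (-0.25) on the deposited scale. EEF1D was 871 ± 5.08 TPM in shCtrl and 744 ± 9.53 TPM in KD cells (SD, n = 3), with 0.019 (adjusted p = 0.433) and an interval of -0.026 to 0.065 after scaling, and -0.23 with a call of lower on the deposited values. EEF1B2 overlapped between the groups at 1042 ± 16.9 TPM in shCtrl and 1034 ± 42.7 TPM in KD cells (SD, n = 3), and its call of higher (0.24, adjusted p = 0.000338) ended on the deposited values, at -0.011. The EEF2 to EEF1G ratio, given after its values were seen and with no test, was 0.801, 0.787 and 0.808 under shCtrl and 1.37, 1.37 and 1.41 under KD. EEF2K, the kinase that switches EEF2 off, had 7.41, 8.53 and 9.74 TPM under shCtrl and 13.8, 11.6 and 12.1 TPM under KD, a change of 0.73 (SE 0.111, adjusted p = 0.00145).

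Summed by complex in TPM as deposited, the EIF1 group stood at 891 ± 0.367 TPM in shCtrl and 599 ± 1.56 TPM in KD cells (SD, n = 3). The EIF2 group with EIF2A summed to 459.7 ± 12.96 TPM in shCtrl and 544 ± 2.41 TPM in KD cells (SD, n = 3), EIF2B to 186 ± 3.66 TPM in shCtrl and 227 ± 4.90 TPM in KD cells (SD, n = 3), and the EIF4 group to 3547 ± 24.1 TPM in shCtrl and 4124 ± 16.9 TPM in KD cells (SD, n = 3). The EIF5 and EIF6 group summed to 1149.6 ± 14.8 TPM in shCtrl and 1541 ± 35.1 TPM in KD cells (SD, n = 3) and the EEF group to 17726 ± 293 TPM in shCtrl and 19445 ± 204 TPM in KD cells (SD, n = 3). Sums were lower in KD cells for the EIF1 group only and higher for the other 6 groups, and each exact permutation p was 0.1, the smallest possible. A sum is weighted toward its most abundant genes, such as EIF5A and EEF1A1. The higher sum of the EIF2 group rested on EIF2A, which is no subunit of EIF2 and went from 102 to 234 TPM in the mean. Of the EIF2 subunits, EIF2S1 went from 111 to 136 TPM, EIF2S2 from 151 to 115 TPM and EIF2S3 from 96.1 to 58.7 TPM.

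Other genes of translation and its control were followed in 7 lists chosen by role. Their counts stand beside 28.5% of all tested genes called higher and 25.9% lower after scaling, and 16.3% and 40.3% on the deposited values. Among the other EIF and EEF genes, 7 of 17 tested were higher and 1 lower, with a median of 0.21, and 4 higher and 4 lower on the deposited values. EIF5AL1 changed by 1.21 (adjusted p = 6.01e-06) and EEF1AKMT4, a methyltransferase of EEF1A, by 0.80 (adjusted p = 4.2e-05). EIF5A2, the paralog of EIF5A, went down from 7.44 ± 0.535 TPM in shCtrl to 3.17 ± 0.151 TPM in KD cells (SD, n = 3), a change of -0.81 (adjusted p = 0.000243), while EIF5A rose. Of 9 enzymes that make hypusine on EIF5A or diphthamide on EEF2, 6 were higher and none lower, with a median of 0.38, and 3 higher and 1 lower on the deposited values. The largest changes were in the diphthamide genes DPH2 (0.89, adjusted p = 0.000142), DPH1 (0.79, adjusted p = 2.61e-05) and DPH7 (0.52, adjusted p = 0.000132). Of the hypusine enzymes, DOHH was called higher, at 0.21 (adjusted p = 0.015), and was not called on the deposited values (-0.023). DHPS did not pass the test, at -0.09 (adjusted p = 0.2), and was called lower on the deposited values (-0.33).

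The EIF2 kinases and phosphatase genes were mixed, with 5 of 13 higher and 6 lower and a median of 0.060, and 3 higher and 7 lower on the deposited values. PPP1R15A, the stress-induced subunit that directs dephosphorylation of EIF2 alpha, was 105 ± 4.26 TPM in shCtrl and 34.9 ± 1.25 TPM in KD cells (SD, n = 3), a change of -1.32 (adjusted p = 1.23e-06). IMPACT, which restrains the kinase EIF2AK4, changed by -1.04 (adjusted p = 1.75e-05), and the kinase EIF2AK3 by 0.53 (adjusted p = 0.00203). In the list of mTORC1 and cap-binding control, 9 of 20 were higher and 6 lower, with a median of 0.076, against 5 and 9 on the deposited values, shares lower that are near those of all tested genes. The stress-induced mTORC1 inhibitors DDIT4 and SESN2 had the largest decreases. DDIT4 was 775 ± 21.9 TPM in shCtrl and 127 ± 3.93 TPM in KD cells (SD, n = 3), a change of -2.36 (adjusted p = 7.22e-08), and SESN2 was 79.1 ± 3.29 TPM in shCtrl and 19.5 ± 0.432 TPM in KD cells (SD, n = 3), a change of -1.73 (adjusted p = 5.36e-07). MKNK2, a kinase that phosphorylates EIF4E, was 63.3 ± 2.07 TPM in shCtrl and 108 ± 3.495 TPM in KD cells (SD, n = 3), a change of 1.01 (adjusted p = 3.67e-06).

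Poly(A)-binding proteins and partners had 4 of 6 higher and 2 lower (deposited values, 3 and 2), with a median of 0.31, led by PABPC4 (0.76, adjusted p = 2.02e-06), PABPC1 (0.37, adjusted p = 1.59e-05) and PAIP2 (0.36, adjusted p = 0.000153). Of 8 tested termination and recycling factors, 3 were higher and none lower, with a median of 0.11, but on the deposited values 3 were higher and 4 lower. Those higher were ABCE1 (0.67, adjusted p = 3.15e-05), which splits ribosomes after termination, GSPT1 (0.66, adjusted p = 5.82e-06), a release factor, and MCTS1 (0.55, adjusted p = 0.00249). GSPT2 was listed at 0 in every library. Of 11 mitochondrial translation factors, 5 were higher and 2 lower, with a median of 0.34, against 4 and 4 on the deposited values. GFM1, the mitochondrial elongation factor G, changed by -0.64 (adjusted p = 4.44e-05), against 0.62 (adjusted p = 2.21e-05) for the recycling factor MRRF and 0.58 (adjusted p = 0.000244) for the release factor MTRF1L. Over all 7 lists 39 of 84 tested genes were higher and 17 lower, and on the deposited values 25 were higher and 31 lower, so which direction held more calls rested on the scaling. The shares called lower were near those of all tested genes on both scales.

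**Figure D4:**
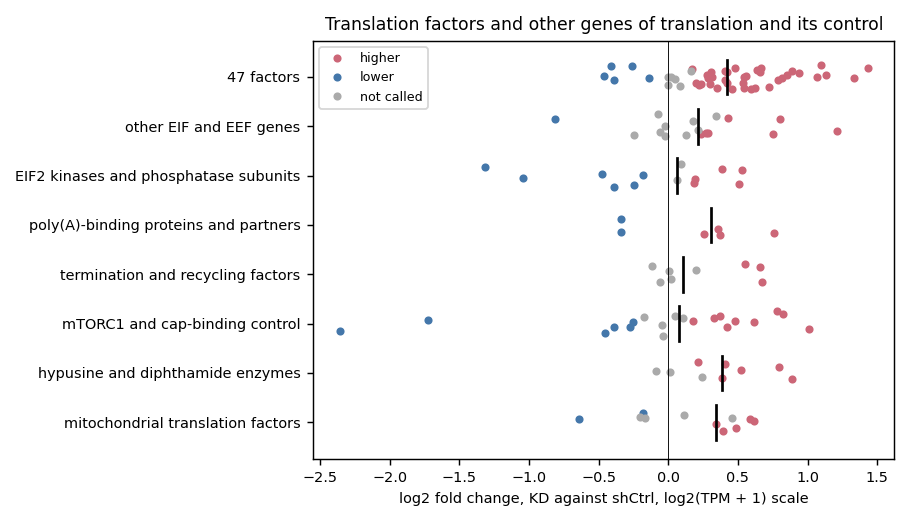
Log2 fold change, KD against shCtrl, on the log2(TPM + 1) scale after scaling, for the 47 factors and 7 lists of related genes. Each point is 1 tested gene (red higher, blue lower, grey not called), and the black bar is the list's median. The 47 factors have a median of 0.42, and the farthest points to the left are DDIT4, SESN2 and PPP1R15A.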

How the data were processed

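RNA-seq of HCT116 cells (3 shCtrl and 3 GMDS-AS1 KD libraries) was analysed from the TPM per gene that the authors deposited. Per the labels, RNA was enriched for poly-A and sequenced in paired reads. The study's methods name Cufflinks and RSEM for quantification; the submitters' processing notes also name Trimmomatic, TopHat2 and GRCh38.p13. The annotation is not given in the sources used here. Lines of 2 genes held no value and were left out. Read totals cannot be recovered from TPM, so depth is unknown and no counting error is given. Strand use in counting is not stated.

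The 16901 genes that reached 0.5 TPM in 3 or more libraries were scaled by a trimmed mean of log ratios (30% of ratios and 5% of mean levels cut from each end, unweighted), transformed as log2(TPM + 1), and tested two-sided with limma (version 3.58.1, R version 4.3.3) under a trended prior variance, with Benjamini-Hochberg adjustment over all 16901 genes and a threshold of 0.05. P-values measure only the spread between these libraries. The fit was tested on simulated data. Ratios within a library were compared by exact permutation. Values in every library are given for factors past the threshold with a log2 change of at least 0.5 and for 10 factors fixed by name, and up to 3 genes of each related list by size of change. Outside these rules, EIF1, EIF1B and EIF2S3 are also listed by library, and DOHH and DHPS are also named from their list. The factors and lists were chosen with earlier results of these data known. Positions are from GENCODE v29. Another scaling, pseudocount and filter, a replicate block and leaving out each library were tried as alternatives.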

Additional observations from a re-analysis of the deposited data

How the results depend on the processing

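The number of factors called higher stayed within 1.5 times of 36 under every alternative run. On the TPM as deposited, 9 factors were lower instead of 5, 2 instead of 5 reached 2-fold, and in the related lists 25 instead of 39 genes were higher and 31 instead of 17 lower. Upper-quartile scaling gave 26 lower in these lists, and 31 higher and 7 lower among the factors. Shares of all tested genes called were counted only after trimmed-mean scaling and, without the 2-fold rule, on the deposited values. Counts under other settings, such as upper-quartile scaling or the replicate block, therefore have no background beside them. The median of the factors was 0.42 as reported, 0.18 on the deposited values, 0.33 with upper-quartile scaling, 0.41 with median-of-ratios scaling, and 0.38 to 0.44 with 1 library left out. By construction each scaling moves abundant genes by nearly one amount, and genes of low TPM by less because of the pseudocount. Directions turned on the deposited values for EIF1B (-0.16), EIF2B4 (-0.022), EIF3C (-0.049), EIF4A2 (-0.20), EIF4E (-0.085), EIF4G2 (-0.078), EEF1B2 (-0.011), EEF1D (-0.23) and EEF1G (-0.25). With upper-quartile scaling they turned for EIF1B (-0.0056), EIF4A2 (-0.041), EEF1D (-0.071) and EEF1G (-0.089), and with median-of-ratios scaling for EEF1G (-0.011). Leaving out 1 library turned 3 factors near 0 that were not called, EIF4G3 (-0.030 to 0.014), EEF1D (-0.0078 to 0.030) and EEF1G (-0.028 to 0.013), and left the ratio of EEF2K to EEF2 between -0.11 and 0.11.

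A pseudocount of 0.1 and a filter of 1 TPM in every library kept the call of each of the 47 factors, and no filter or no variance trend ended 2 calls each. The change of GMDS-AS1 was -0.68 with a pseudocount of 0.1 and -0.55 on the deposited values, both called, -0.41 without a filter (adjusted p = 0.132 from limma), -0.41 with the replicate block (adjusted p = 0.0518), and -0.52 to -0.30 with 1 library left out. With the replicate block 35 factors were higher and 5 lower, the call lost being EIF4A3 (adjusted p = 0.056), and the exact p of 7 ratios was 0.25, the smallest possible. Replicate numbers did not pair the libraries, since deviations of libraries with one number correlated at 0.029, -0.038 and 0.014, and 1 of 3 numbers was closest to its own partner. Without read counts, the precision of low genes such as EIF4EBP2 and EEF2K could not be set from depth.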
